A study of Mus musculus with 14 samples.

Results

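The 10 genes described here encode secreted ligands of the bone morphogenetic protein (BMP) family: Bmp2, Bmp3, Bmp4, Bmp5, Bmp6, Bmp7, Gdf5, Gdf6, Gdf7 and Gdf10. They were chosen by name as members of the family, with earlier results of these data known, and make up 10 of the 24454 genes counted. Their transcripts were measured by RNA-seq of poly(A)+ RNA in 14 libraries, each made from cells of the mouse forelimb bud that had been sorted by FACS. S9 stands for the EGFP that a Sox9 IRES-EGFP reporter allele expresses, and Pαhi for high surface levels of the receptor PDGFRα. All embryos carried this allele on a mixed Swiss Albino background, and buds were pooled before sorting, so that no library is a single embryo. Every population was first depleted of dead cells (7AAD) and of cells with CD31, Ter119, CD45, EpCam, Gr1 or CD11b.

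Limb bud mesenchymal progenitors (LMPs) came as S9-JAG1+ cells, which carry the NOTCH ligand JAG1 (3 libraries), and as S9-Pαhi cells without JAG1 and SCA-1 (3 libraries). S9+Pαhi cells are the osteo-chondrogenic progenitors (OCPs, 3 libraries), which give rise to the cartilage of the limb skeleton. S9-SCA-1+ cells (2 libraries, with the replicate numbers 2 and 3) lacked EGFP and JAG1. These 4 populations were labelled E10.5, whereas the chondroblasts (S9+COL2+ by label, 3 libraries) were labelled E11.5. The gating label of the chondroblasts is the same as that of the OCPs. Stage and chondroblast identity therefore cannot be told apart in any comparison with them. In bulk libraries such as these, fewer cells that express a gene and less RNA of it per cell cannot be told apart either.

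BMPs bind pairs of type I and type II receptor kinases, which phosphorylate SMAD1, SMAD5 and SMAD9, and these enter the nucleus with SMAD4 to regulate genes such as the Id and Msx genes. In the limb bud, BMP signalling is restrained by the antagonist GREM1 during outgrowth. Later it drives condensation and cartilage formation, and GDF5 marks the sites where joints form. BMP2 and BMP4 form one branch of the family, BMP5, BMP6 and BMP7 another, and GDF5, GDF6 and GDF7 a further one. BMP3 and GDF10 (also called BMP3B) stand apart from the classical BMPs, and BMP3 is known to counteract BMP signalling.

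Promoters of 5 of the 10 members (Bmp4, Bmp5, Bmp6, Gdf7 and Gdf10) were matched in the RefSeq table of GRCm38.p6. Those of Bmp2, Bmp3, Bmp7, Gdf5 and Gdf6 were not. The 250 bases before the transcript start are printed for 3 members with their highest mean in different populations. That of Bmp4 (chr14:46390670-46390919, minus strand) was in S9-Pαhi LMPs, that of Bmp5 (chr9:75775115-75775364, plus strand) in S9-JAG1+ LMPs, and that of Gdf10 (chr14:33923337-33923586, plus strand) in chondroblasts. Bmp4 did not differ by a called amount between both LMP populations, nor Bmp5 between S9-JAG1+ LMPs and chondroblasts. Each sequence is written 5′ to 3′ on the strand of the gene, and capitals mark matches to the motifs searched.
Bmp4: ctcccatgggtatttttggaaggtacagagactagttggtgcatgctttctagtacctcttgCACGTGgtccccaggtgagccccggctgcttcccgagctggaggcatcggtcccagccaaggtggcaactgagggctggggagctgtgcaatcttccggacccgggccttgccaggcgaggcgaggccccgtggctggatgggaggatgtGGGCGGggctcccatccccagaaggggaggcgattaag
Bmp5: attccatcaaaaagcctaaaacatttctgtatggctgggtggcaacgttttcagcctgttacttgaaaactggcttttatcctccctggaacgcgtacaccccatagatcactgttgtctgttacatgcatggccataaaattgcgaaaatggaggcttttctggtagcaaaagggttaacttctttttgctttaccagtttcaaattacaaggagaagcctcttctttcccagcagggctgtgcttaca
Gdf10: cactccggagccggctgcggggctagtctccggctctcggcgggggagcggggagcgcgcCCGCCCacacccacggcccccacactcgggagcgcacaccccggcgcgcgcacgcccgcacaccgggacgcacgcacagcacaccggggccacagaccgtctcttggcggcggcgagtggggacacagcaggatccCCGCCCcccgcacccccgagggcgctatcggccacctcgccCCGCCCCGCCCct
Searched on both strands were the GC box (GGGCGG), the motif named after its letters CCAAT, the TATA box (TATAAA), the E-box (CACGTG), a HOX13 core (CAATAAA) and a SOX core (ACAAT), of which the HOX13 core can share letters with the second motif and with the SOX core. The Gdf10 window held 4 GC boxes, the last 2 overlapping by a base, the Bmp4 window held 1 GC box and 1 E-box, and the Bmp5 window held no match. Of 32841 windows of the same length, 32.7% held a GC box and 6.02% this E-box. The CCAAT motif was in 33.9%, the TATA box in 12.4%, the HOX13 core in 4.21% and the SOX core in 27.7%, and none of these was in the windows of the 5 members. The GC content was 78.8% for Gdf10, which is above that of 98.3% of all windows, 63.2% for Bmp4 and 42.8% for Bmp5, against a median of 52.4%. The windows of Bmp6 and Gdf7 had 68.8% and 66% GC with 1 GC box each, and that of Bmp6 also held the E-box. A match describes letters only and is not a binding site.

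Between 20316583 and 29162751 reads were counted per library, so that 3 reads, at or under which a gene was treated as not detected, amounted to 0.101 to 0.149 CPM (read counts of a gene relative to the total of its library, scaled by TMM). Of the genes of the sort, Sox9 was at 432 to 445 CPM in OCPs, 411 to 625 in chondroblasts and at most 65.5 elsewhere, Jag1 at 228 to 364 CPM in S9-JAG1+ LMPs, and Col2a1, the cartilage collagen gene, at 1270 to 1890 CPM in chondroblasts, 695 to 1230 in OCPs and at most 168 elsewhere. Jag1 also reached 102 to 137 CPM in chondroblasts. Pdgfra, which encodes PDGFRα, was at 667 to 950 CPM in OCPs and chondroblasts, 360 to 530 in S9-Pαhi LMPs and 246 to 248 in S9-JAG1+ LMPs, but at 24 and 44.8 in S9-SCA-1+ cells. Ly6a, which encodes SCA-1, reached 3.1 and 3.36 CPM in S9-SCA-1+ cells but no more than 0.406 in any other library. Of the cartilage genes, Snorc was at no more than 3 reads in every library. The S9-SCA-1+ cells differed in kind from the rest. Their 6 myoblast genes summed to 1500 CPM in both libraries, with Met highest, against at most 10.7 CPM elsewhere, and their 7 limb mesenchyme genes to 465 and 595 CPM against 1880 to 3710. Red blood cell genes summed to 3220 CPM in S9-SCA-1+ replicate 3 and to 116 in replicate 2. The part of these cells in the ligand levels was not tested. The 11 ectoderm genes summed to 21.5 to 24.9 CPM in chondroblasts and 6.29 to 15.5 elsewhere, with Krt18 highest and the defining Wnt7a at no more than 3 reads in any library. This sum was thus highest in chondroblasts, the population with most ligands called higher than the mean of the other 4, and its part in those calls was not tested. Leukocyte genes summed to at most 4.24 CPM and endothelial genes to at most 15.7.

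Single libraries stood apart for some members. Chondroblast replicate 3 was the lowest of its group for 6 members (Bmp2, Bmp3, Bmp4, Bmp5, Bmp6 and Gdf7), and S9-JAG1+ replicate 1 was far above the other two for Gdf10. S9-Pαhi replicate 3 was the lowest of its group for Bmp2, Bmp3, Bmp4, Bmp6, Gdf5, Gdf7 and Gdf10. Chondroblast replicate 3 had the highest Acan, a cartilage proteoglycan gene (14.9 CPM against 3.43 and 10.3), Krt14 (0.825 against at most 0.0673) and Krt5 (0.982 against at most 0.274) of its group. S9-JAG1+ replicate 1 had more Krt8 (6.38 CPM against 1.26 and 1.98) and Gata3 (4.67 against 1.09 and 1.31). Its Krt14 (0 against 0.0419 and 0.0793) and Krt5 (0.0856 against 0.21 and 0.159) were not higher. Krt14 in this group and Krt5 in replicate 1 were at no more than 3 reads, so that their order carries no weight. Whether these differences have a part in the ligand levels was not tested.

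All 10 members passed the filter on low counts, and all 10 differed among the 5 populations. The quasi-likelihood test of edgeR was used, with p adjusted by Benjamini-Hochberg over the 15125 genes tested, and a difference counts as called here where the adjusted p did not exceed 0.1 and the log2 difference was 1.2 or more. Of all genes tested, 29.2% were called in the same joint test. The difference between the highest and lowest population mean had a median of 3.18 on the log2 scale over the members and of 0.75 over all genes tested. It was largest for Gdf5 (6.40) and smallest for Bmp6 (1.76), whose adjusted p in the joint test was 4.86e-10 and 0.0232. Over the 10 pairs of populations, 62 of 100 combinations of member and pair were called. Of these, 49 were called under every alternative that kept the fold limit and with each library left out in turn.

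**Figure D1:**
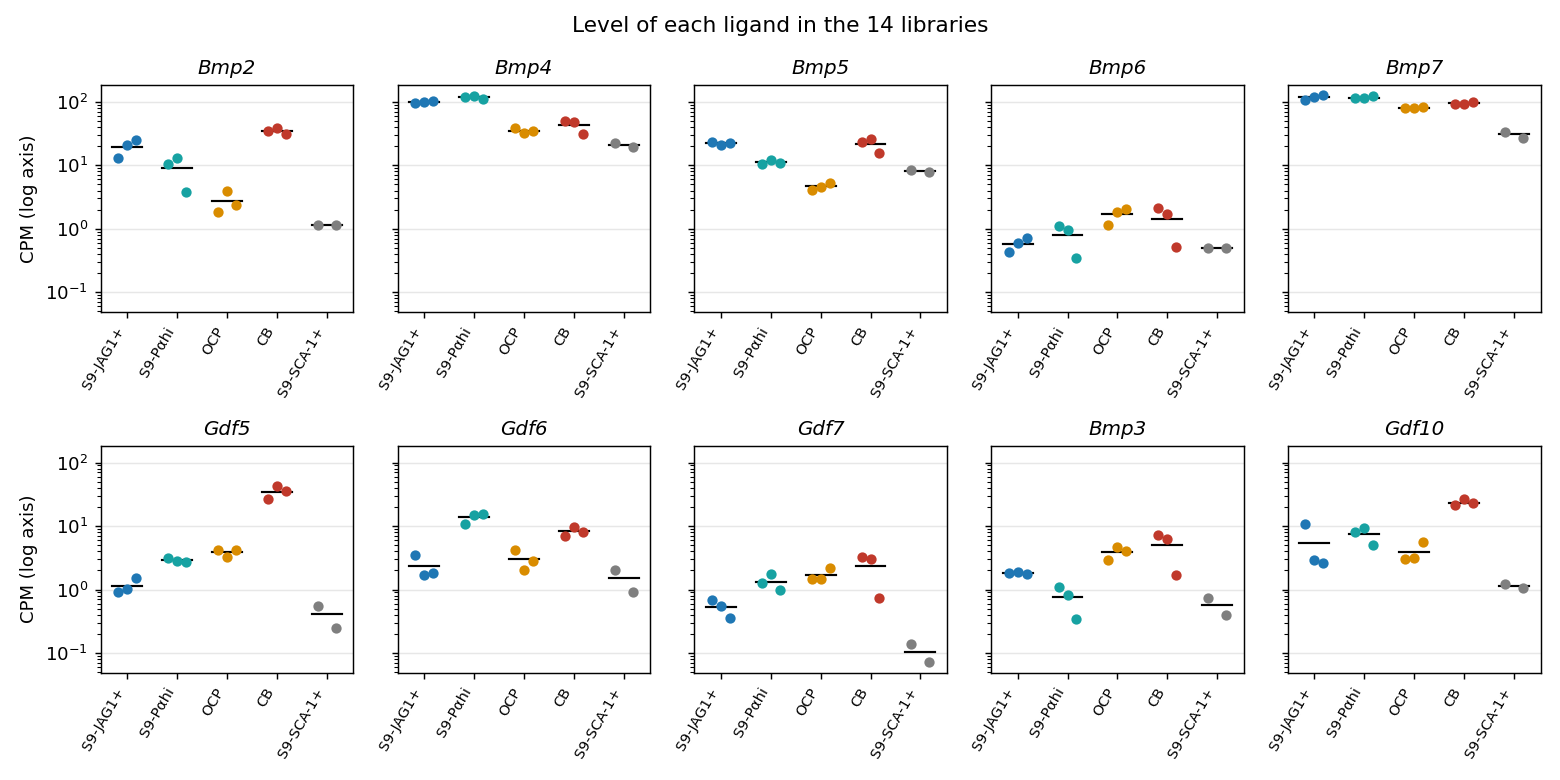
Level of each ligand gene in CPM on a logarithmic axis, in the 14 libraries of 5 populations (CB, chondroblasts); points are libraries and black lines are means. Bmp4 and Bmp7 lie above 19 CPM in every library, Gdf5 is at 26.4 to 42.2 CPM in chondroblasts and at most 4.27 elsewhere, and 9 of the 10 genes have their lowest mean in S9-SCA-1+ cells.

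Bmp2 and Bmp4, of the same branch, had different orders of levels. Bmp2 (Entrez 12156, chr2:133552159-133562896), a ligand that promotes cartilage and bone formation, was highest in chondroblasts. It measured 35.1, 38.5 and 30.9 CPM there, and 13.1, 21.2 and 24.9 CPM in S9-JAG1+ LMPs. The S9-Pαhi LMPs held 10.53, 13.1 and 3.79 CPM, the OCPs 1.87, 3.9 and 2.35, and the S9-SCA-1+ cells 1.15 and 1.14. The chondroblasts lay above all other libraries, and OCPs and S9-SCA-1+ cells below nearly all others, with the single S9-Pαhi library at 3.79 CPM inside the range of the OCPs. Bmp2 was thus 13-fold higher in chondroblasts than in OCPs (log2 difference 3.70 ± 0.39 SE, adjusted p = 1.63e-05, edgeR) and 7.39-fold lower in OCPs than in S9-JAG1+ LMPs (-2.89 ± 0.38, adjusted p = 4.24e-05). In the order of means, chondroblasts and S9-JAG1+ LMPs (0.82 ± 0.33, adjusted p = 0.0446) and S9-JAG1+ and S9-Pαhi LMPs (1.10 ± 0.34, adjusted p = 0.0332) stayed under the fold limit. S9-Pαhi LMPs were above OCPs (1.78 ± 0.39, adjusted p = 0.00796). The difference between OCPs and S9-SCA-1+ cells (1.22 ± 0.52, adjusted p = 0.0811) was called but rested on single libraries: it was 0.88 without OCP replicate 2, and was not called either without OCP replicate 3, S9-SCA-1+ replicate 2 (1.22, adjusted p = 0.225) or S9-SCA-1+ replicate 3 (1.21, adjusted p = 0.237). The difference between both LMP populations passed the limit without S9-JAG1+ replicate 1 (1.33), S9-Pαhi replicate 1 (1.21) or S9-Pαhi replicate 2 (1.45), S9-Pαhi replicate 3 being the low library.

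Bmp4 (Entrez 12159, chr14:46383525-46390669), the main BMP of the distal limb mesenchyme and ridge, separated both LMP populations from the rest. S9-Pαhi LMPs held 119, 123 and 110 CPM and S9-JAG1+ LMPs 94.5, 101 and 102. Chondroblasts held 50.5, 48 and 31 CPM, OCPs 38.5, 32.1 and 34.4, and S9-SCA-1+ cells 22.3 and 19.7. The 6 LMP libraries lay above all 8 others, and chondroblasts and OCPs overlapped. Bmp4 was 3.34-fold lower in OCPs than in S9-Pαhi LMPs (log2 difference -1.74 ± 0.15, adjusted p = 5.01e-06, edgeR) and 2.83-fold lower than in S9-JAG1+ LMPs (-1.50 ± 0.14, adjusted p = 2.27e-06). The LMP populations differed from each other by 0.24 ± 0.14 (adjusted p = 0.26), chondroblasts from OCPs by 0.30 ± 0.14 (adjusted p = 0.138), and OCPs from S9-SCA-1+ cells by 0.74 ± 0.17 (adjusted p = 0.00313), all under the fold limit. The difference between chondroblasts and S9-JAG1+ LMPs (-1.20 ± 0.14) sat on that limit. It was -1.05 without chondroblast replicate 3, and without OCP replicate 1 or any 1 of the S9-Pαhi libraries it stayed at -1.20 but fell just short of the limit. With library totals in place of TMM scaling it was -1.075, and it was also lost where the filter was 1 CPM in 2 libraries. Bmp4 shares 84 bases with the convergent gene Gm15217 in RefSeq, which was at no more than 1.92 CPM.

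Of the branch of Bmp5, Bmp6 and Bmp7, Bmp7 (Entrez 12162, chr2:172868012-172940321), which acts together with BMP2 and BMP4 in the limb bud, was the only ligand with no called difference among the 4 populations other than S9-SCA-1+ cells. It measured 108, 119 and 127 CPM in S9-JAG1+ LMPs and 113, 114 and 124 in S9-Pαhi LMPs. Chondroblasts held 93.2, 93.2 and 97.9 CPM, OCPs 80.4, 80.5 and 82.6, and S9-SCA-1+ cells 34 and 27.4. No library of one of the latter 3 populations overlapped with another. Bmp7 was 3.85-fold lower in S9-SCA-1+ cells than in S9-JAG1+ LMPs (log2 difference -1.94 ± 0.10, adjusted p = 6.22e-09, edgeR) and 2.64-fold lower than in OCPs (-1.40 ± 0.10, adjusted p = 1.79e-07). Among the other 4 populations no pair reached the fold limit, although 5 of those 6 pairs had an adjusted p of at most 0.1, the exception being both LMP populations (0.01 ± 0.09, adjusted p = 0.926). OCPs were 0.54 ± 0.09 below S9-JAG1+ LMPs (adjusted p = 0.000221) and 0.22 ± 0.09 below chondroblasts (adjusted p = 0.0739).

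Bmp5 (Entrez 12160, chr9:75775365-75900316), known for its role in cartilage condensations and in the shaping of skeletal elements, was the only member with its lowest mean in OCPs. It measured 23.2, 21 and 22.4 CPM in S9-JAG1+ LMPs and 23, 26.3 and 15.9 in chondroblasts. S9-Pαhi LMPs held 10.53, 12 and 11 CPM, S9-SCA-1+ cells 8.29 and 7.98, and OCPs 4.1, 4.56 and 5.35. The OCPs lay below all 11 other libraries, and S9-JAG1+ LMPs and chondroblasts overlapped. Bmp5 was 4.74-fold lower in OCPs than in S9-JAG1+ LMPs (log2 difference -2.24 ± 0.17, adjusted p = 1.93e-07, edgeR), and 4.64-fold higher in chondroblasts than in OCPs (2.21 ± 0.17, adjusted p = 1.42e-06). S9-JAG1+ LMPs and chondroblasts differed by 0.03 ± 0.15 (adjusted p = 0.877). The next steps in the order were 0.96 ± 0.16 between chondroblasts and S9-Pαhi LMPs (adjusted p = 0.00026), 0.46 ± 0.18 between S9-Pαhi LMPs and S9-SCA-1+ cells (adjusted p = 0.0828) and 0.80 ± 0.19 between S9-SCA-1+ cells and OCPs (adjusted p = 0.00403), all under the fold limit. The difference between OCPs and S9-Pαhi LMPs (-1.26 ± 0.17, adjusted p = 0.000233) was called, but was -1.17 and under the limit without OCP replicate 1. In GENCODE, 1878 bases of the Bmp5 exons (46.7%) are overlapped by the antisense gene Gm26903, for which no level was used, and the sources used here do not state whether reads were counted by strand.

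Bmp6 (Entrez 12161, chr13:38345716-38500314), known in cartilage maturation and iron metabolism, was near the lower end of what these libraries measure. Its levels were 1.14, 1.85 and 2.06 CPM in OCPs and 2.09, 1.68 and 0.51 in chondroblasts. S9-Pαhi LMPs held 1.1, 0.94 and 0.349 CPM, S9-JAG1+ LMPs 0.428, 0.587 and 0.714, and S9-SCA-1+ cells 0.49 and 0.499, from 7 to 62 reads per library. All neighbours in this order overlapped and none differed beyond their spread, with adjusted p from 0.167 to 0.83. OCPs were above S9-JAG1+ LMPs (log2 difference 1.54 ± 0.49, adjusted p = 0.0225, edgeR) and above S9-SCA-1+ cells (1.76 ± 0.56, adjusted p = 0.025), the latter not called without S9-SCA-1+ replicate 2 (adjusted p = 0.118) or replicate 3 (adjusted p = 0.12). Chondroblasts were above S9-JAG1+ LMPs (1.31 ± 0.49) and S9-SCA-1+ cells (1.53 ± 0.56), and neither call held without chondroblast replicate 1, where the differences were 0.91 and 1.14. The first was also lost without chondroblast replicate 2 (1.15) or S9-JAG1+ replicate 1 (1.14), and the second without S9-SCA-1+ replicate 2 (adjusted p = 0.126) or replicate 3 (adjusted p = 0.122). OCPs passed the limit over S9-Pαhi LMPs only without OCP replicate 1 (1.27). The last 49 bases of Bmp6 in RefSeq overlap the opposite-strand gene Txndc5 (chr13:38500266-38528824), which was at 168 to 249 CPM, so that Bmp6 reads may include reads of Txndc5.

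Gdf5, Gdf6 and Gdf7 form the branch best known from joints and skeletal boundaries. Gdf5 (Entrez 14563, chr2:155941023-155945367), a marker of presumptive joints, was the member with the largest difference. It measured 26.4, 42.2 and 35.3 CPM in chondroblasts, against 4.22, 3.28 and 4.27 in OCPs and 3.09, 2.86 and 2.69 in S9-Pαhi LMPs. S9-JAG1+ LMPs held 0.899, 1.01 and 1.51 CPM and S9-SCA-1+ cells 0.56 and 0.249. None of the 5 populations overlapped with another. Gdf5 was 8.78-fold higher in chondroblasts than in OCPs (log2 difference 3.13 ± 0.21, adjusted p = 5.91e-07, edgeR) and 30.2-fold higher than in S9-JAG1+ LMPs (4.92 ± 0.24, adjusted p = 3.75e-09). OCPs and S9-Pαhi LMPs differed by 0.45 ± 0.23 (adjusted p = 0.209). S9-Pαhi LMPs were 1.33 ± 0.26 above S9-JAG1+ LMPs (adjusted p = 0.00203), a difference of 1.19 and under the limit without S9-JAG1+ replicate 1. S9-JAG1+ LMPs were 1.48 ± 0.38 above S9-SCA-1+ cells (adjusted p = 0.00986), which was 1.02 (adjusted p = 0.133) without S9-SCA-1+ replicate 3. In GENCODE, 936 bases of the Gdf5 exons (40.3%) are overlapped by the opposite-strand gene Gm15557, for which no level was used.

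Gdf6 (Entrez 242316, chr4:9844372-9862345), which acts in joint and bone formation of the limb and skull, had a different order and was the only member of its branch with its peak in LMPs. S9-Pαhi LMPs held 10.9, 15 and 15.5 CPM and chondroblasts 7, 9.75 and 8.17. OCPs held 4.14, 2 and 2.86 CPM, S9-JAG1+ LMPs 3.47, 1.68 and 1.82, and S9-SCA-1+ cells 2.06 and 0.926. S9-Pαhi LMPs and chondroblasts each lay apart from all other libraries, and the remaining 3 populations overlapped. Gdf6 was 5.94-fold higher in S9-Pαhi than in S9-JAG1+ LMPs (log2 difference 2.57 ± 0.33, adjusted p = 6.1e-05, edgeR) and 4.57-fold higher than in OCPs (2.19 ± 0.32, adjusted p = 0.000433). Chondroblasts were 1.46 ± 0.32 above OCPs (adjusted p = 0.00422). S9-Pαhi LMPs and chondroblasts differed by 0.73 ± 0.29 (adjusted p = 0.0546), OCPs and S9-JAG1+ LMPs by 0.38 ± 0.34 (adjusted p = 0.403), and S9-JAG1+ LMPs and S9-SCA-1+ cells by 0.63 ± 0.40 (adjusted p = 0.299). OCPs were 1.01 ± 0.40 above S9-SCA-1+ cells, a difference that passed the limit without OCP replicate 2 (1.22) or S9-SCA-1+ replicate 2 (1.70).

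Gdf7 (Entrez 238057, chr12:8297918-8301954), known from tendon and the roof plate of the spinal cord, was low in all libraries. Chondroblasts held 3.23, 2.98 and 0.746 CPM, OCPs 1.46, 1.47 and 2.21, S9-Pαhi LMPs 1.26, 1.73 and 0.996, and S9-JAG1+ LMPs 0.685, 0.545 and 0.357. In S9-SCA-1+ cells 4 and 2 reads were counted (0.14 and 0.0712 CPM), around the limit of detection. The first 3 populations overlapped, and their neighbouring means differed by 0.44 ± 0.42 (adjusted p = 0.479, edgeR) and 0.36 ± 0.44 (adjusted p = 0.618). Chondroblasts were 4.4-fold above S9-JAG1+ LMPs (log2 difference 2.14 ± 0.48, adjusted p = 0.00161) and OCPs 3.25-fold above them (1.70 ± 0.49, adjusted p = 0.0131). S9-Pαhi LMPs were called above S9-JAG1+ LMPs (1.34 ± 0.50, adjusted p = 0.0716), but this was lost without any 1 of S9-Pαhi replicate 1 (adjusted p = 0.13), S9-Pαhi replicate 2 (0.218), S9-JAG1+ replicate 2 (0.149) or S9-JAG1+ replicate 3 (0.216). With 6 reads in S9-SCA-1+ cells, the ratio of summed reads to them was 22.6 (95% interval for counting error alone 10.2 to 62.3) for chondroblasts and 16.5 (7.36 to 45.7) for OCPs. It was 12.9 (5.7 to 35.9) for S9-Pαhi LMPs and 4.95 (2.08 to 14.3) for S9-JAG1+ LMPs, the last pair being called (adjusted p = 0.0498) but not without S9-JAG1+ replicate 1 (adjusted p = 0.116) or either S9-SCA-1+ library (adjusted p = 0.128 and 0.259).

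Bmp3 and Gdf10, which stand apart from the classical BMPs, did not share an order. Gdf10 (Entrez 14560, chr14:33923587-33936514) measured 21.1, 26.3 and 22.7 CPM in chondroblasts. S9-Pαhi LMPs held 8.17, 9.25 and 5.08 CPM, S9-JAG1+ LMPs 10.8, 2.89 and 2.62, OCPs 3.04, 3.19 and 5.68, and S9-SCA-1+ cells 1.22 and 1.07. Chondroblasts lay above and S9-SCA-1+ cells below all other libraries, and the 3 populations between them overlapped. Gdf10 was 5.84-fold higher in chondroblasts than in OCPs (log2 difference 2.55 ± 0.43, adjusted p = 0.000848, edgeR) and 3.1-fold higher than in S9-Pαhi LMPs (1.63 ± 0.41, adjusted p = 0.00531). S9-Pαhi and S9-JAG1+ LMPs differed by 0.48 ± 0.43 (adjusted p = 0.48), but by 1.45 ± 0.30 (adjusted p = 0.00374) without S9-JAG1+ replicate 1, the library at 10.8 CPM. S9-JAG1+ LMPs and OCPs differed by 0.44 ± 0.44 (adjusted p = 0.464). OCPs were 1.80 ± 0.58 above S9-SCA-1+ cells (adjusted p = 0.0261), which was not called without S9-SCA-1+ replicate 2 (adjusted p = 0.105) or replicate 3 (adjusted p = 0.141).

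Bmp3 (Entrez 110075, chr5:98854415-98884053) measured 7.16, 6.33 and 1.69 CPM in chondroblasts and 2.88, 4.76 and 4.01 in OCPs. S9-JAG1+ LMPs held 1.84, 1.89 and 1.74 CPM, S9-Pαhi LMPs 1.1, 0.827 and 0.349, and S9-SCA-1+ cells 0.735 and 0.392. OCPs lay above all S9-negative libraries, and chondroblast replicate 3 fell below all S9-JAG1+ libraries. Bmp3 was 4.99-fold higher in OCPs than in S9-Pαhi LMPs (log2 difference 2.32 ± 0.49, adjusted p = 0.00679, edgeR), and 6.54-fold higher in chondroblasts than in these LMPs (2.71 ± 0.48, adjusted p = 0.000494). In the order of means, chondroblasts and OCPs differed by 0.39 ± 0.42 (adjusted p = 0.523) and S9-Pαhi LMPs and S9-SCA-1+ cells by 0.45 ± 0.63 (adjusted p = 0.669). OCPs were 1.09 ± 0.45 above S9-JAG1+ LMPs (adjusted p = 0.0668), and past the limit without OCP replicate 1 (1.26). S9-JAG1+ LMPs were 1.23 ± 0.51 above S9-Pαhi LMPs (adjusted p = 0.103), a difference that was called without chondroblast replicate 3 (adjusted p = 0.0213), OCP replicate 1 (0.0949) or OCP replicate 2 (0.0902), and also by DESeq2 (0.0465), by the likelihood ratio test of edgeR (0.0504) and where every gene with a count was tested (0.0932). Chondroblasts were 1.48 ± 0.44 above S9-JAG1+ LMPs (adjusted p = 0.0101), but 1.12 without chondroblast replicate 1. S9-JAG1+ LMPs were 1.68 ± 0.59 above S9-SCA-1+ cells (adjusted p = 0.0523), but 1.31 (adjusted p = 0.296) without S9-SCA-1+ replicate 3.

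Counted by pair of populations, each number of members stands beside the share of all genes tested that was called in the same pair and direction. Between both LMP populations, 3 members (Gdf5, Gdf6 and Gdf7) were called higher in S9-Pαhi LMPs (4.42% of all genes). None was called lower, with Bmp5 (-0.99 ± 0.16, adjusted p = 0.000431, edgeR) and Bmp2 (-1.10 ± 0.34, adjusted p = 0.0332) lower but under the fold limit. Between OCPs and S9-JAG1+ LMPs, 3 members (Bmp6, Gdf5 and Gdf7) were higher in OCPs (9.03%) and 3 (Bmp2, Bmp4 and Bmp5) lower (3.46%). Between OCPs and S9-Pαhi LMPs, Bmp3 was higher in OCPs (3.48%) and 4 members (Bmp2, Bmp4, Bmp5 and Gdf6) were lower (1.36%). Chondroblasts had 6 members higher (15.2%) and only Bmp4 lower (4.17%) than S9-JAG1+ LMPs. Against S9-Pαhi LMPs, chondroblasts had 4 members higher (10.8%) and again Bmp4 lower (1.83%). From OCPs to chondroblasts, 5 members (Bmp2, Bmp5, Gdf5, Gdf6 and Gdf10) were higher (6.6%) and none lower.

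S9-SCA-1+ cells had no member called higher than in any other population. They were lower for 8 members against S9-JAG1+ LMPs (4.91% of all genes), 7 against S9-Pαhi LMPs (5.58%), 7 against OCPs (8.03%) and 9 against chondroblasts (13.9%). Fewer members were called against S9-JAG1+ LMPs, against OCPs and against chondroblasts with either S9-SCA-1+ library left out. Replicate 3 was the library with the most red blood cell transcripts. A lone remaining library is taken in such a fit to vary like the other groups.

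**Figure D2:**
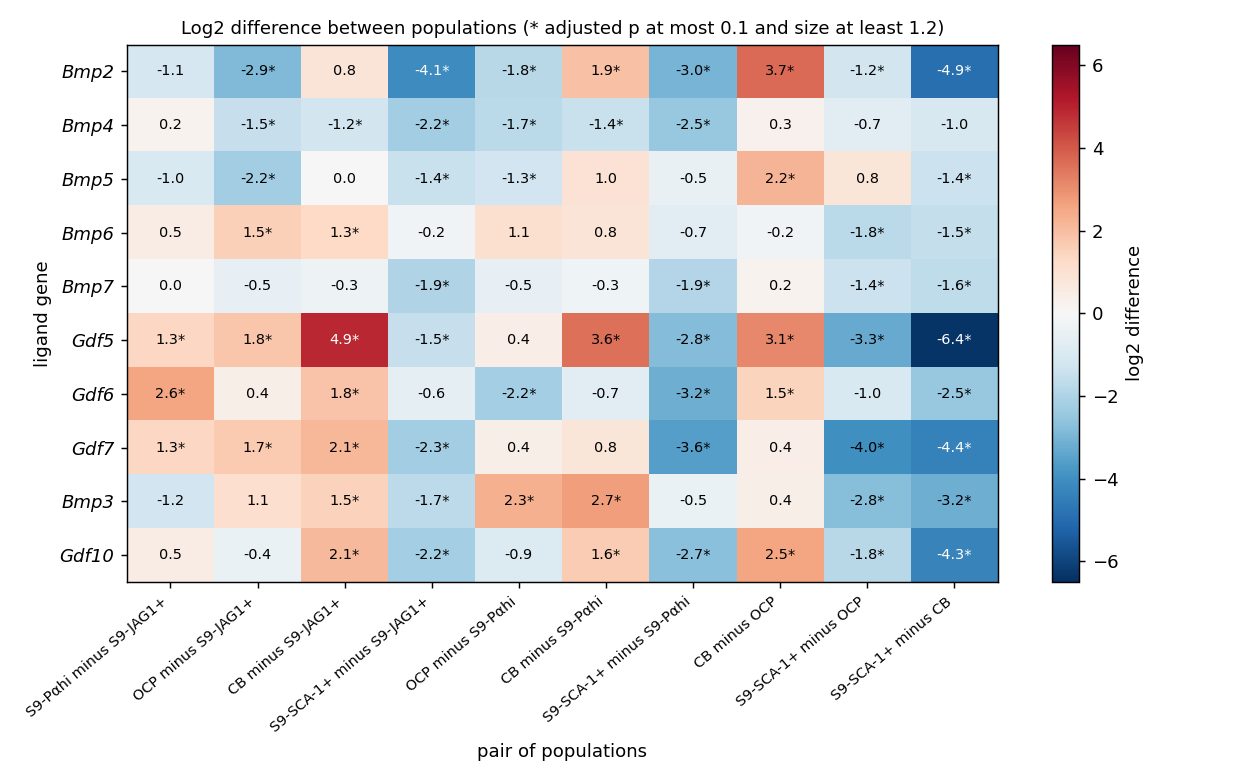
Log2 difference of each ligand gene (rows) in each of the 10 pairs of populations (columns, named as the first minus the second; CB, chondroblasts), from the edgeR fit; blue is lower and red higher in the first, and asterisks mark called differences. The 4 columns of S9-SCA-1+ cells hold asterisks only on negative values, and the column of chondroblasts minus OCPs only on positive ones.

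Each population was also compared with the mean of the other 4, comparisons that share their libraries. This mean was taken over log2 levels, so that a very low level in 1 population, such as S9-SCA-1+ cells, lowers it strongly. A member called higher here can be lower than in 1 of the 4, as Bmp2 in S9-JAG1+ LMPs was against chondroblasts (means of 19.8 and 34.8 CPM). Chondroblasts had 6 members higher (Bmp2, Bmp3, Gdf5, Gdf6, Gdf7 and Gdf10) and none lower, where 11% of all genes were higher. S9-SCA-1+ cells had 8 lower and none higher (6.8% of all genes lower). OCPs had Bmp3 and Gdf7 higher (3.37%) and Bmp2 and Bmp5 lower (1.64%). S9-Pαhi LMPs had Bmp4 (1.48 ± 0.11, adjusted p = 6.3e-07, edgeR) and Gdf6 (2.17 ± 0.22, adjusted p = 1.99e-05) higher (1.53%) and Bmp3 lower (2.31%). S9-JAG1+ LMPs had Bmp2 higher (2.88%) and Gdf5 lower (7.7%), with Bmp4 and Bmp5 higher but just under the fold limit. With S9-JAG1+ replicate 1 left out, 4 members were called in these LMPs (Bmp4 and Gdf6 being added), and likewise 4 without chondroblast replicate 2 (Bmp4 and Bmp5 being added). Some of the calls rested on single libraries. Gdf6 in chondroblasts (1.26) was between 1.10 and 1.19 and under the limit without any 1 of OCP replicate 2, chondroblast replicate 2, S9-JAG1+ replicate 2, S9-JAG1+ replicate 3 or S9-SCA-1+ replicate 3. Without chondroblast replicate 3, in contrast, Bmp5 (1.28) and Bmp6 (1.21) were added in chondroblasts. Gdf7 in OCPs (1.40) was 1.15 (adjusted p = 0.103, edgeR) without OCP replicate 3. For Gdf7, OCPs were not called above S9-Pαhi LMPs (0.36 ± 0.44) and had a lower mean than chondroblasts, and S9-SCA-1+ cells held 6 reads. Bmp3 in S9-Pαhi LMPs (-1.45) was not called without S9-Pαhi replicate 2 (adjusted p = 0.119), S9-Pαhi replicate 3 (0.208) or S9-SCA-1+ replicate 2 (0.107), and Bmp3 in S9-SCA-1+ cells (-2.02) not without S9-SCA-1+ replicate 3 (-1.64, adjusted p = 0.121). Bmp6 was added in OCPs without OCP replicate 1 (1.36), chondroblast replicate 1 (1.24) or S9-Pαhi replicate 1 (1.22).

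Levels of different genes were compared per kb of transcript. The 10 ligands summed to 104 ± 4.34 CPM per kb (SD, n = 3) in S9-Pαhi LMPs, 95.9 ± 4.25 in S9-JAG1+ LMPs and 91.7 ± 9.68 in chondroblasts. OCPs, in contrast, held 47.6 ± 1.89 and S9-SCA-1+ cells 22.4 ± 2.66 (n = 2). The 9 libraries of the first 3 populations lay between 82.1 and 108 CPM per kb, and the OCPs between 45.5 and 49.1. By mean level per kb, Bmp4 and Bmp7 were the most abundant of the 10 members in every population. Bmp4 made up 54.9% ± 1.09 of the summed level in S9-Pαhi LMPs and 50.3% ± 0.754 in S9-JAG1+ LMPs, but 35.7% ± 2.64 in OCPs and 22.7% ± 4.2 in chondroblasts. Bmp7 made up 30.8% ± 2.72 and 33.5% ± 1.28 in these LMPs, and 46.5% ± 1.51 in OCPs, where, as in chondroblasts, it exceeded Bmp4.

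In chondroblasts, ligands other than Bmp4 and Bmp7 took larger shares. Gdf5 made up 16.3% ± 3.36 of the summed level there, Bmp2 10.6% ± 0.0991 and Gdf10 10.2% ± 0.945, against Bmp7 at 28.4% ± 3.78. The branch of Gdf5, Gdf6 and Gdf7 reached 20.6% ± 3.07 in chondroblasts, 7.84% ± 1.05 in OCPs, 5.87% ± 0.65 in S9-Pαhi LMPs, 2.93% ± 1.25 in S9-SCA-1+ cells and 1.59% ± 0.371 in S9-JAG1+ LMPs. The share of Gdf10 depends on the transcript length, as its longest GENCODE transcript is 5210 bases against 2509 in the count table, and with the former it was 5.19% in chondroblasts.

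**Figure D3:**
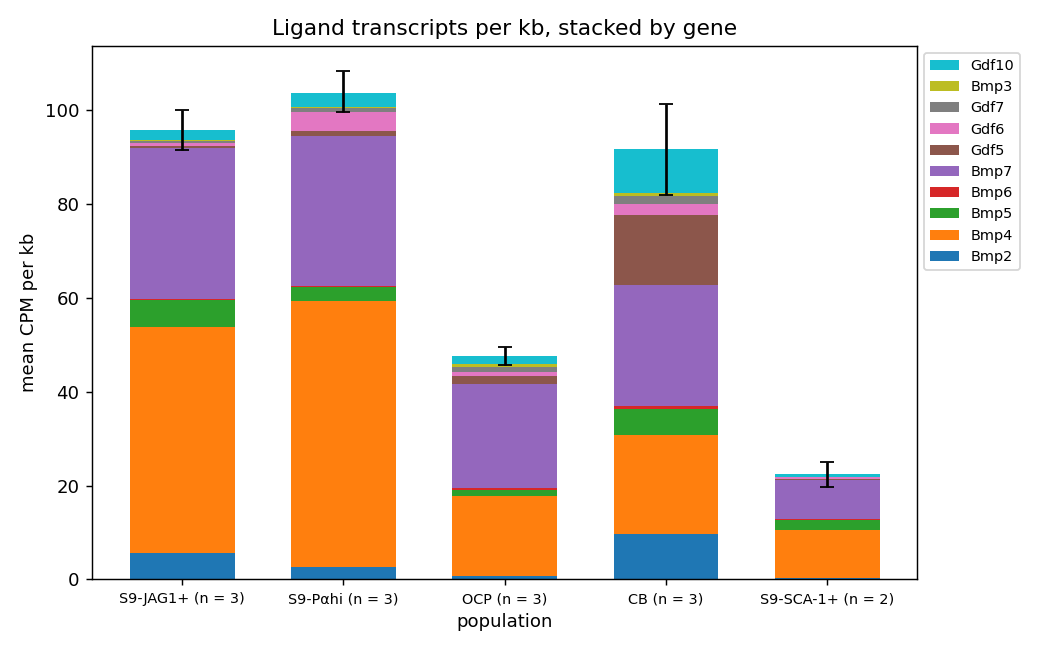
Mean level per kb of transcript (CPM per kb) of the 10 ligand genes, stacked, in each population (CB, chondroblasts); error bars are the SD of the sum over the libraries. The sum is 91.7 to 104 CPM per kb in both LMP populations and chondroblasts and 47.6 in OCPs, with Bmp4 and Bmp7 as the widest bands.

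For each member, the 3 genes whose log2 CPM followed it best over the 14 libraries were listed by Pearson's r, as a description without a test, since all libraries of a population share its state. Bmp2 was followed best by Crispld1 (r = 0.986), Nfia (0.967) and Drp2 (0.948), and Bmp4 by Prdm6 (0.943), Scmh1 (0.942) and Nap1l5 (0.939). Those of Bmp7 were Hand2 (0.988), Arhgap24 (0.966) and Hoxd10 (0.964), and those of Bmp5 were Lmo7 (0.938), Arhgap31 (0.937) and Golm2 (0.923). Bmp6 had the lowest best r of the members, with Mex3b (0.901), Mir1906-1 and Mir1906-2 (both 0.891), which hold the same count in every library. Gdf5 was followed by Adgrl3 (0.987), Patj and Eln (both 0.979), Gdf6 by Cds1 (0.948), Tbx3 (0.928) and Ube2e2 (0.912), and Gdf7 by Npy1r (0.948), Sdk1 (0.944) and Hoxc5 (0.943). Bmp3 was followed by Mkx (0.915), Hr (0.902) and Eif2ak3 (0.882), and Gdf10 by Tmem45a (0.97), Tunar and Adcy5 (both 0.958). None of these 30 genes was itself a member. Among the members, r was highest for Gdf5 and Gdf10 (0.85), Bmp2 and Bmp5 (0.838) and Bmp4 and Bmp7 (0.819), and lowest for Bmp5 and Bmp6 (-0.212). Bmp4 and Gdf10 lie 12.4 Mb apart on chromosome 14, and Gdf5 lies between Bmp2 and Bmp7 on chromosome 2 at 22.4 and 16.9 Mb.

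The other genes of the pathway were counted from lists of 72 genes, 63 of them tested, with 6 genes in 2 lists. In the joint test 43 of the 63 were called (68.3%, against 29.2% of all genes tested). Of 21 genes tested from a list of secreted or membrane antagonists and modulators, 20 were called, all but Twsg1. Their median difference between the highest and lowest population was 2.61 over the 21 genes. In all, 13 of the 20 were highest in chondroblasts, as were 48.5% of all genes called. The largest differences were those of Bmper, Cer1 and Smoc2. Bmper, which encodes a BMP-binding secreted regulator, was at 33.1 ± 5.9 CPM (SD, n = 3) in chondroblasts, 6.17 ± 2.84 in OCPs and at most 0.639 ± 0.189 as a mean elsewhere (chondroblasts minus OCPs 2.42 ± 0.30 SE, adjusted p = 6.9e-05, edgeR). Smoc2, which encodes a matricellular protein, was at 69.4 ± 14.7 CPM in chondroblasts and 17.5 ± 7.46 in OCPs (1.98 ± 0.36, adjusted p = 0.00133). Cer1 reached 0.68 CPM in chondroblasts and was at or near 0 elsewhere.

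Grem1, the antagonist of BMP2, BMP4 and BMP7 in limb bud outgrowth, and Nog, the noggin gene, had their highest means in different populations (these genes, and Msx1, Msx2 and Tbx2 below, were chosen after their values were seen). Grem1 was at 93.3, 90.3 and 82.2 CPM in S9-JAG1+ LMPs and at most 30.7 elsewhere, 3.307 ± 0.221 on the log2 scale above chondroblasts (adjusted p = 3.85e-08, edgeR). Nog was at 9.03 ± 1.82 CPM in chondroblasts, 7.57 ± 0.827 in S9-SCA-1+ cells (n = 2) and at most 2.2 ± 0.857 elsewhere. Per kb, Grem1 amounted to 0.633 ± 0.086 of the summed level of Bmp2, Bmp4 and Bmp7 in S9-JAG1+ LMPs, to 0.165 ± 0.0416 in S9-Pαhi LMPs, 0.266 ± 0.0937 in OCPs, 0.0973 ± 0.0123 in chondroblasts and 0.309 ± 0.024 in S9-SCA-1+ cells. The S9-JAG1+ libraries (0.549 to 0.721) lay above all others.

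**Figure D4:**
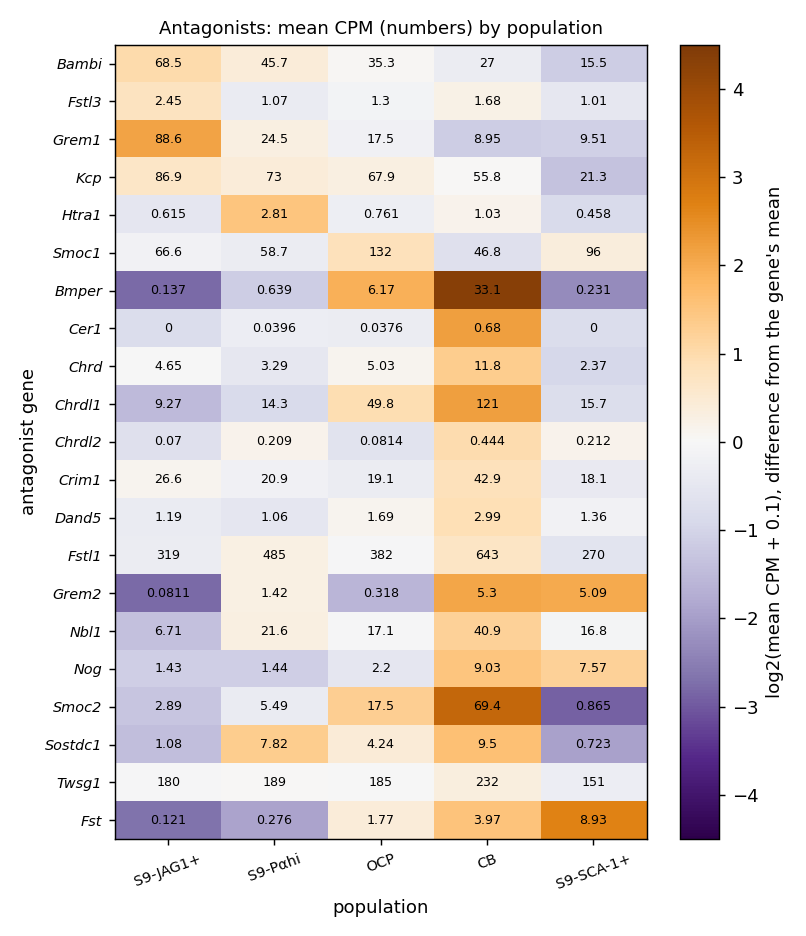
Mean CPM (numbers) of the 21 tested genes of the list of antagonists and modulators in each population (CB, chondroblasts), grouped by the population with the highest mean; colours are log2(mean CPM + 0.1) minus the mean of the gene over the 5 populations. Of these genes, 14 have their highest mean in chondroblasts, Twsg1 among them, and 4 in S9-JAG1+ LMPs, Grem1 among them.

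Of the receptors and Smads, 7 of 19 were called (36.8%, near the 29.2% of all genes tested), with a median difference of 0.93 against 0.75 over all genes, and 5 of the 7 were highest in chondroblasts. The largest was that of Bmpr1b, the type I receptor through which GDF5 acts in cartilage, which was at 84.9 ± 17 CPM in chondroblasts, 45.4 ± 2.13 in S9-SCA-1+ cells, 34.6 ± 3.85 in OCPs, 18.8 ± 1.92 in S9-Pαhi LMPs and 4.6 ± 0.574 in S9-JAG1+ LMPs. Smad9 (0.779 CPM in OCPs to 6.21 in chondroblasts) and Eng (4.23 CPM in S9-Pαhi LMPs to 19.4 in S9-SCA-1+ cells) came next. Among 20 target genes 16 were called (80%), with a median difference of 3.13, of which 6 were highest in chondroblasts, 5 in S9-Pαhi LMPs, 3 in S9-JAG1+ LMPs, 2 in S9-SCA-1+ cells and none in OCPs. Of all genes called, 48.5% were highest in chondroblasts, 5.55% in S9-Pαhi LMPs and 14.2% in S9-JAG1+ LMPs. The share was 21.4% for S9-SCA-1+ cells and 10.3% for OCPs. Of the target genes, Gata3, Dlx5 and Id4 differed most. Dlx5, a gene of bone and ridge development, was at 16 ± 1.8 CPM in chondroblasts and 1.03 ± 0.233 in OCPs (3.93 ± 0.35 SE, adjusted p = 4.39e-06, edgeR), Id4 at 20.4 and 6.25, and Gata3 at 0.807 and 0.224, its highest mean being 5.82 in S9-SCA-1+ cells. Msx1 (284 ± 14.3 CPM), Msx2 (89.8 ± 11.1) and Tbx2 (254 ± 60.3) had their highest means in S9-Pαhi LMPs, and OCPs held 22.9, 11.1 and 24.7 CPM of them. S9-JAG1+ LMPs held 260 CPM of Msx1, a difference from S9-Pαhi LMPs of 0.13 ± 0.16 (adjusted p = 0.61, edgeR), but 21.1 CPM of Msx2 (adjusted p = 3.08e-06) and 49.7 CPM of Tbx2 (adjusted p = 2.54e-07).

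Of the proteases that mature the ligands or cleave chordin, 3 of 5 were called (60%). Pcsk6, a proprotein convertase, was highest in chondroblasts (28.3 CPM) and lowest in OCPs (4.61), Tll1 was highest in chondroblasts (10 CPM, against 2.3 in S9-JAG1+ LMPs), and Pcsk5 was highest in OCPs (35.6 CPM, against 10.8 in S9-JAG1+ LMPs). Of 11 other ligands of the family 4 were tested and only Mstn, the growth inhibitor of muscle, was called, with means of 3.2 CPM in S9-SCA-1+ cells, 2.34 in OCPs and 0.647 in chondroblasts, and at most 1 read in any LMP library. Gdf11 and Gdf1 were measured at 58.7 to 78.7 and 13.3 to 20.3 CPM over the 14 libraries, without a called difference.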

How the data were processed

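RNA-seq counts of 14 libraries were used, 3 of each population and 2 of the S9-SCA-1+ cells. The authors aligned single-end reads to mm10 with STAR, keeping 1 hit of a read with several, and counted with qCount of QuasR the reads starting in exons of RefSeq mRNAs. The deposited table holds these raw counts per Entrez gene and a length per gene, by which levels per kb were computed. Whether counting used strand is not given in the sources used here. Of 24454 genes, 24374 matched a symbol. The study calls the libraries of a population biological replicates, and the labels do not say whether they came from separate litters or sorts. The p-values measure the spread between these libraries.

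Counts were scaled by TMM, filtered by filterByExpr and fitted with 1 mean per population over all 14 libraries with the quasi-likelihood test of edgeR 4.0.16 in R 4.3.3. Benjamini-Hochberg adjustment ran over 15125 genes, and differences were called at an adjusted p up to 0.1 and a log2 difference from 1.2. These limits follow the study, whose methods do not say whether p was adjusted. An SE is the log2 difference divided by the root of F, and correlations used log2 CPM with a prior count of 2. The interval of a ratio of reads is exact. DESeq2 1.42.0, other scalings, filters and thresholds, the replicate number as a block, and leaving out each library in turn were the alternatives. On simulated counts with 200 changed genes among 14709, the joint test, the pair of chondroblasts and OCPs, and chondroblasts against the other populations recovered 200 each, with 0, 1 and 0 false calls. The changed genes were well counted, differed only in chondroblasts and by more than the fold limit, and all genes had the same spread. Recovery of differences near the limit, or of members with few reads, was therefore not measured. The members and lists were chosen with earlier results of these data known. Named are all members, the 3 best correlated genes of each, the 3 called genes of each pathway list with the largest difference, the genes of the sort and the most abundant gene of each marker list (1 list is not reported here), and others are named as chosen after their values were seen. Figures were drawn with matplotlib 3.10.9.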

Additional observations from a re-analysis of the deposited data

How the results depend on the processing

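All 10 members differed among the 5 populations under the 9 alternatives run for that joint test and without any 1 library. It was not run without the S9-SCA-1+ cells as a group. The 62 called combinations of member and pair numbered 55 to 63 with each library left out, 59 at an adjusted p of up to 0.05, 61 to 63 with the other scalings, filters and tests, and 78 with no limit on the fold change. Without that limit, 36 in place of 23 calls were made between 1 population and the mean of the other 4 (21 to 25 with each library left out), and 59 in place of 43 pathway genes (41 to 44) were called. The pairs without S9-SCA-1+ cells gave 31 calls with and without these cells in the fit, and 29 to 32 with each library left out. Scaling by library totals moved the median of all genes by up to 0.124 on the log2 scale, the other scalings by up to 0.023, and no called difference of a member reversed. With the replicate number as a block, 63 combinations were called, Bmp3 being added between both LMP populations (-1.32, adjusted p = 0.0551, edgeR). Whether the numbers pair the libraries stayed undecided. Of 26 pairs with the same number, 4 had deviations correlated over 0.1 (median -0.005 and highest 0.308, against a median of -0.003 in 52 other pairs). Deviations from a population mean cancel out over its libraries, so that these medians cannot decide it. The longest GENCODE transcript as length moved 6 shares beyond their spread, 4 of them of Gdf10. With Spearman's rho, 11 of the 30 best correlated genes were shared. Depth limits Bmp6 and Gdf7 most, with 62 reads or fewer of Bmp6 in each library and 6 reads of Gdf7 over both S9-SCA-1+ libraries.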
